A study of Homo sapiens with 6 samples.

Results

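The MYC, MAX and MXD network was described as 10 genes (MYC, MYCN, MYCL, MAX, MXD1, MXD3, MXD4, MXI1, MNT and MLX), matched by gene symbol among the 60609 genes of the count files, of which 34998 had at least 1 count. Poly(A) RNA was sequenced from K562 cells, an established human leukaemia line with erythroid features, to ask how steady-state transcript levels depend on the attachment of TRRAP to EP400. EP400 is the scaffold and ATPase subunit of TIP60, a chromatin complex that acetylates histones and exchanges H2A.Z. In every cell of both groups the endogenous EP400 carried a homozygous FKBP12 degradation tag, and every culture received 500 nM dTAGV-1, the molecule that degrades the tagged protein, for 24 h. The 3 WT libraries came from cells that expressed wild-type EP400 from the AAVS1 safe harbour locus. The 3 Delta-TRRAP libraries came from cells that expressed, from that same locus, EP400 without the SANT domain and the hydrophobic domain that contact TRRAP. Each line was 1 clone, so that genotype and clone cannot be told apart, and cells without dTAGV-1 were not analysed here.

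MYC, MYCN and MYCL are basic helix-loop-helix leucine zipper proteins that bind E-box DNA as dimers with MAX and activate genes for growth, ribosome biogenesis and nucleotide synthesis. MXD1, MXI1, MXD3, MXD4 and MNT compete for MAX and for the same sites and recruit SIN3 and histone deacetylases, while MLX pairs with MLXIP (MondoA) and MLXIPL (ChREBP) in a parallel branch that senses sugars. TRRAP is the large adaptor through which MYC contacts acetyltransferase complexes, TIP60 among them, and K562 cells are known for high MYC levels.

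The libraries of WT held 39966818 to 42616061 gene counts and those of Delta-TRRAP 35076835 to 38491513. The mitochondrial share of counts was 3.18% to 3.71% for WT libraries and 5.07% to 6.24% for Delta-TRRAP libraries, and the part of this difference in the results was not tested. The summed level of 10 erythroid markers was 5485 to 5522 CPM (counts scaled to the library total) for WT and 3666 to 3755 CPM for Delta-TRRAP, a sum dominated by the transferrin receptor gene TFRC. The sample labels name the cells lymphoblasts, but 10 lymphoid markers summed to 12.8 to 13.5 CPM for WT and 11.7 to 12.7 CPM for Delta-TRRAP, with MS4A1 at 0. The summed level of 10 fibroblast markers was 0.896 to 1.43 CPM for WT and 25.4 to 26.4 CPM for Delta-TRRAP, with LUM at 0, and most of it was the collagen gene COL1A2. In bulk RNA, fewer cells of a type and less RNA per cell cannot be told apart.

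EP400 and TRRAP transcripts did not pass the test. Normalized counts (counts scaled to a common library size) of EP400 were 4897, 4897 and 5377 in WT and 5533, 6833 and 4357 in Delta-TRRAP, with a log2 fold change of 0.14 ± 0.11 (SE) and an adjusted p of 0.272. The EP400 value rested on single libraries: it was 0.28 without Delta-TRRAP replicate 3 (adjusted p of 0.00167) and -0.03 without Delta-TRRAP replicate 2 (0.725). These counts add the tagged gene and the transgene, and neither show the deleted segment nor measure protein. TRRAP had normalized counts of 6538, 6763 and 7585 in WT and 7021, 8769 and 5782 in Delta-TRRAP, with a log2 fold change of 0.05 ± 0.11 (SE) and an adjusted p of 0.713. This value also turned on the same libraries, at 0.17 without Delta-TRRAP replicate 3 (0.0519) and -0.12 without Delta-TRRAP replicate 2 (0.144).

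Of the 10 network genes, 9 had enough counts to be tested and 4 of them passed the adjusted p of 0.01: MYCL, MXD1 and MAX were lower in Delta-TRRAP and MXD4 was higher. This count has to be read against the whole transcriptome, in which 58.3% of 19114 genes tested passed, with 30.7% of all tested higher and 27.6% lower. MYCL was the only member that also passed a fold change of 2, the rule for a called gene, which 22.6% of all genes tested met, 16.5% higher and 6.08% lower. WT and Delta-TRRAP libraries were fully separated for 6 of the 9 members and for 71.1% of all genes tested. The median log2 fold change was -0.16 over the 9 members and 0.03 over all genes tested. Counted in either direction, the shares of members that passed, were called or were separated were not above those of all genes, and the data of interest are the values of the single genes.

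**Figure D1:**
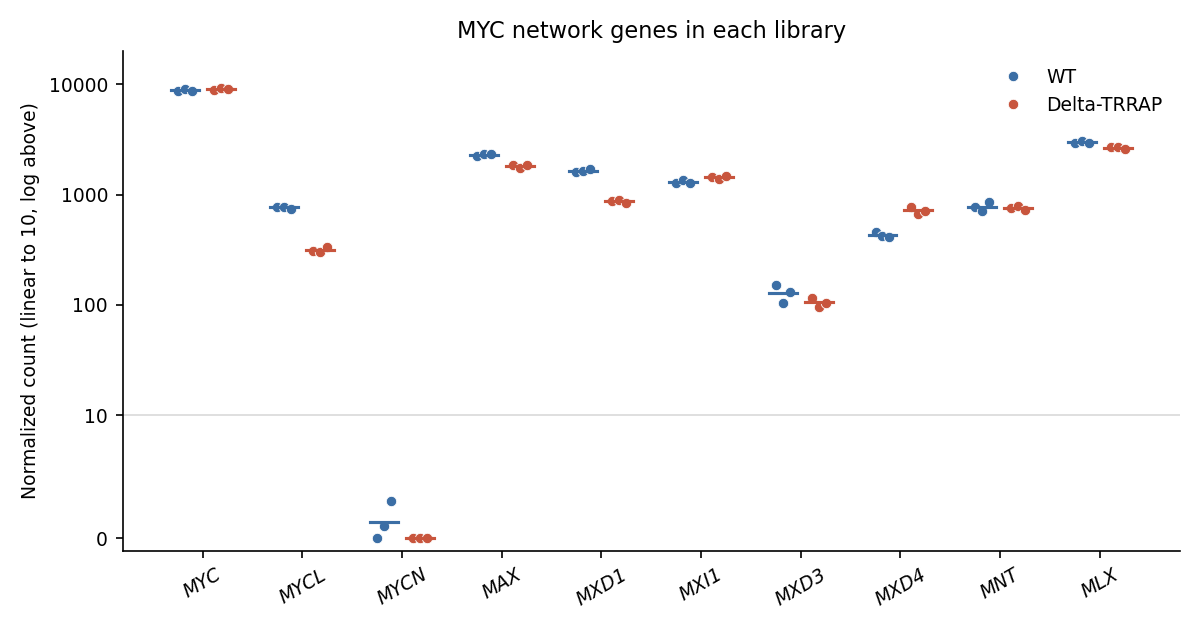
Normalized counts of the 10 network genes in each library (points, 3 WT and 3 Delta-TRRAP, with bars at the group means). The vertical axis is linear up to 10 and logarithmic above. WT and Delta-TRRAP points overlap for MYC, MNT and MXD3 and are apart for MYCL, MXD1 and MXD4, while MYCN lies at or near 0.

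MYC, the activator at the centre of the network, showed no difference beyond the spread between libraries. Its normalized counts were 8600, 9078 and 8629 in WT and 8833, 9265 and 8950 in Delta-TRRAP. The groups overlapped, with means of 8769 ± 268 (SD, n = 3) and 9016 ± 223 (SD, n = 3). The log2 fold change was 0.04 ± 0.05 (SE), with a 95% interval of -0.07 to 0.15 and an adjusted p of 0.49. This call depended on the scaling: with library size only, which moved the median of all genes tested by 0.13, MYC stood at 0.17 on the log2 scale and an adjusted p of 0.00471. MYC (ENSG00000136997.19) lies on GRCh38 chromosome 8, from 127735434 to 127742951 on the plus strand.

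PVT1, a long noncoding RNA gene beside MYC, rose from normalized counts of 1380, 1296 and 1235 in WT to 1877, 1843 and 1951 in Delta-TRRAP. The groups did not overlap, and the log2 fold change was 0.54 ± 0.06 (SE), at an adjusted p of 4.96e-07. Of 11 genes listed around MYC, 9 were in the files and 6 were tested. Of these, 3 were higher past the adjusted p and the other 3 did not pass. Among all genes tested 30.7% were higher, as were 35% of those averaging 5 to 100 normalized counts. Besides PVT1, CASC11 and GSDMC were higher, with means of 9.6 and 0.998 normalized counts in WT and 22.5 and 13.1 in Delta-TRRAP. They are named after their values were seen. GSDMC reached the minimum mean of 5 only through Delta-TRRAP. CASC11 lost its call with DESeq2 (0.0151), without WT replicate 3 (0.0199) and without Delta-TRRAP replicates 1 (0.0153) or 3 (0.0145). CASC11 overlaps MYC on the opposite strand, and the counting used strand.

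MYCL, the MYC paralogue first found amplified in lung cancer, had the largest fold change of the members. Its normalized counts were 778.2, 768.4 and 746.8 in WT and 306.9, 301.2 and 333.2 in Delta-TRRAP. Every Delta-TRRAP library lay below every WT library. The mean decreased by 59%, a log2 fold change of -1.29 ± 0.07 (SE) with a 95% interval of -1.43 to -1.14 and an adjusted p of 2.35e-10. Over the fits that each left out 1 library it ranged from -1.34 to -1.26. MYCL (ENSG00000116990.11) lies on GRCh38 chromosome 1, from 39895428 to 39902256 on the minus strand.

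MYCN, the paralogue of neuroblastoma, was at the edge of detection. It had 0, 1 and 3 counts in the WT libraries and 0 counts in each Delta-TRRAP library, so that all libraries were at or under a floor of 3 counts and no fold change is given. A count of 0 covers counting error only. In CPM per kilobase of merged exons, a scale that allows levels of different genes to be compared, the summed MYC family was 40.9 ± 1.14 in WT and 39.6 ± 0.907 in Delta-TRRAP (SD, n = 3). MYC transcripts were 90 to 90.6% of this sum in WT libraries and 95.6 to 96.2% in Delta-TRRAP libraries. The share of MYCL was 10%, 9.43% and 9.61% in WT and 4.1%, 3.85% and 4.38% in Delta-TRRAP, with no overlap.

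MAX, the obligate partner of MYC and MXD proteins, fell modestly. Its normalized counts were 2243, 2306 and 2334 in WT and 1832, 1730 and 1851 in Delta-TRRAP. All Delta-TRRAP libraries lay below all WT libraries. The mean decreased by 21.4%, with a log2 fold change of -0.35 ± 0.05 (SE), a 95% interval of -0.46 to -0.24 and an adjusted p of 2.01e-05. On the per-length scale, the ratio of MAX to the summed MYC family was 0.229, 0.225 and 0.239 in WT and 0.194, 0.175 and 0.193 in Delta-TRRAP. MAX (ENSG00000125952.20) lies on GRCh38 chromosome 14, from 65006174 to 65102695 on the minus strand, and FNTB overlaps it on the plus strand.

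The MXD genes, which encode the MAX-bound repressors, moved in opposite directions. MXD1, known for its induction during myeloid differentiation, fell, and MXD4 rose. MXD1 had normalized counts of 1586, 1622 and 1700 in WT and 869.8, 889.1 and 837.8 in Delta-TRRAP. The groups were far apart, the mean decreased by 47.1%, and the log2 fold change was -0.92 ± 0.06 (SE), with a 95% interval of -1.03 to -0.80 and an adjusted p of 9.66e-10. MXD4 had normalized counts of 453.9, 422.1 and 411 in WT and 770.8, 665.8 and 716.1 in Delta-TRRAP. The lowest Delta-TRRAP library was above the highest WT library, and the log2 fold change was 0.74 ± 0.07 (SE), a 67.3% rise, with a 95% interval of 0.59 to 0.90 and an adjusted p of 2.76e-07. MXD1 and MXD4 missed the fold change of 2 but passed one of 1.5.

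MXD1 (ENSG00000059728.11) lies on GRCh38 chromosome 2, from 69897688 to 69942945 on the plus strand, and MXD4 (ENSG00000123933.17) on chromosome 4, from 2247432 to 2262109 on the minus strand. In the annotation SNRNP27 overlaps MXD1 on the same strand, where reads shared by both genes were left uncounted. SNRNP27 had means of 1654 and 2200 normalized counts in WT and Delta-TRRAP. The stretches before the RefSeq start sites of MXD4 and MXD1 are shown 5′ to 3′ because these 2 repressor genes moved in opposite directions. Capitals mark CACGTG, the palindromic E box that MYC and MAX bind, which reads the same on both strands. MXD4 (GRCh38.p14, chr4:2262110-2262359, minus strand) holds CACGTG with its first base 238 bases before the start, and MXD1 (GRCh38.p14, chr2:69914859-69915040, plus strand) holds none in the stretch shown, which lies within the annotated span of the gene.
MXD4: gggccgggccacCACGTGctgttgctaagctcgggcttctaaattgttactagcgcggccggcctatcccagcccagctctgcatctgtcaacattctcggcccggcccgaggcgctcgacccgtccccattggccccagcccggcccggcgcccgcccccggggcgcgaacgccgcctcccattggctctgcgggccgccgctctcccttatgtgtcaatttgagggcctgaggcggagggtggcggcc
MXD1: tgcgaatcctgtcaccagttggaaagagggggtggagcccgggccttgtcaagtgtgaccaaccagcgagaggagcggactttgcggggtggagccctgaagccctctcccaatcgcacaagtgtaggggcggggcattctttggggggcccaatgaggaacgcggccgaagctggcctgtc

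The remaining repressors moved less. MXI1, a MAX-binding antagonist of MYC, had normalized counts of 1278, 1344 and 1274 in WT and 1454, 1392 and 1464 in Delta-TRRAP. The groups did not overlap, but the log2 fold change of 0.15 ± 0.05 (SE) had an adjusted p of 0.0228 and did not pass. With library size only the value was 0.28 and with upper quartile scaling, which moved the median of all genes by 0.10, it was 0.25, and both passed. MXD3, which is linked to proliferating cells, was the lowest tested member, with normalized counts of 152, 104.6 and 131.3 in WT and 116.7, 95.5 and 104.7 in Delta-TRRAP. The groups overlapped, and the log2 fold change of -0.29 ± 0.15 (SE), with a 95% interval of -0.60 to 0.02, had an adjusted p of 0.0929. RAB24 overlaps MXD3 on the same strand and PRELID1 on the opposite one.

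MNT, a widely expressed repressor, had normalized counts of 764, 711.8 and 847.5 in WT and 758, 782.8 and 717.2 in Delta-TRRAP. The groups overlapped, and the log2 fold change of -0.04 ± 0.07 (SE) had a 95% interval of -0.19 to 0.11 and an adjusted p of 0.632. MLX had normalized counts of 2925, 3058 and 2919 in WT and 2693, 2701 and 2586 in Delta-TRRAP. All Delta-TRRAP libraries were below all WT libraries, yet the log2 fold change of -0.16 ± 0.05 (SE) had an adjusted p of 0.0101 and just missed the threshold. MLX passed with DESeq2 (0.00969), with limma-voom (0.00899) and without Delta-TRRAP replicate 2 (0.00915). With upper quartile scaling its value was -0.06 (0.309) and with library size only -0.02 (0.671). It also did not pass with no filter (0.0195) or a replicate block (0.0241). MNT and MLX are the other two members with CACGTG in the promoter window, shown here for comparison with MXD4. The stretch of MNT is GRCh38.p14 chr17:2401218-2401283 on the minus strand, with the motif starting 193 bases before the start, and that of MLX is GRCh38.p14 chr17:42567020-42567071 on the plus strand, with the motif starting 50 bases before it.
MNT: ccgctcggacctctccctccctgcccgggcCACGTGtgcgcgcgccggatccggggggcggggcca
MLX: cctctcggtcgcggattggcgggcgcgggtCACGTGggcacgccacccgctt

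RefSeq windows of 250 bases before to 50 bases after the start were at hand for 9 of the 10 members, 12 windows in all, and MYC had no entry. CACGTG was in 3 of these 12 windows and in 7.26% of the 35116 windows of all genes. The motif was in the windows of 1 member that rose (MXD4) and 2 that did not pass (MNT and MLX). Among all genes tested with a window, the median log2 fold change was -0.11 for 1376 genes with CACGTG and -0.01 for 9924 genes without it. Among those averaging 100 or more normalized counts, it was -0.16 for 1120 genes with the motif and -0.09 for 7527 without it. The part of expression level in this difference was not tested. A match describes these letters and no bound site.

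**Figure D2:**
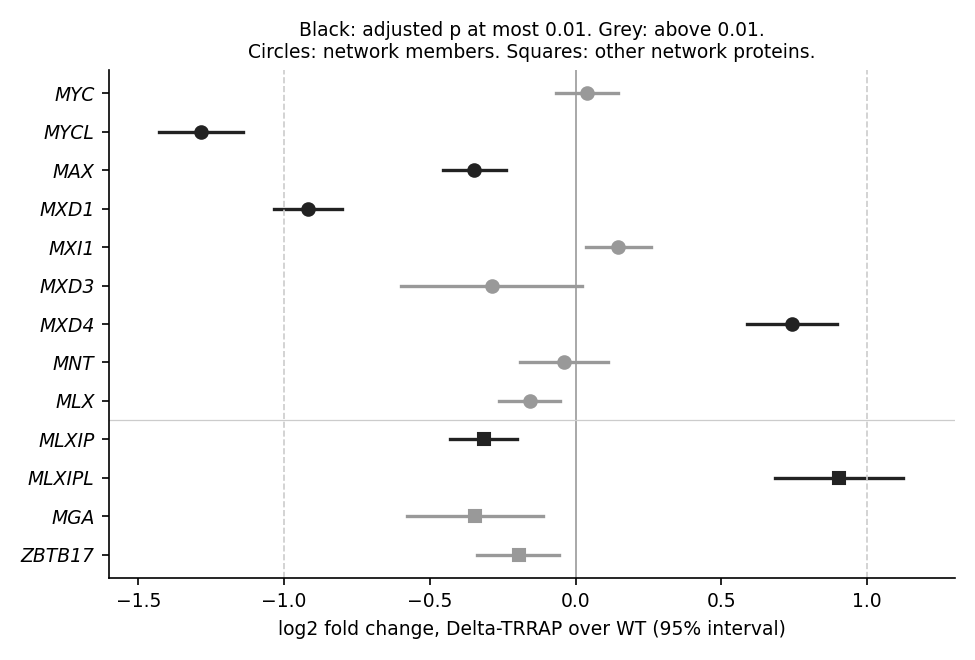
Log2 fold changes of Delta-TRRAP over WT (horizontal axis) with 95% intervals for the 9 members tested (circles) and 4 other network genes (squares). Black marks an adjusted p of at most 0.01, grey a larger one, and dashed lines a fold change of 2. Only the MYCL point lies beyond a dashed line among the members, and the MYC and MNT intervals span 0.

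The makeup of the repressor transcripts shifted more than their sum. On the per-length scale, MXD1, MXD3, MXD4, MXI1 and MNT summed to 16.8, 16.7 and 17.2 in WT and 15.6, 15 and 15.1 in Delta-TRRAP. MXD1 was 38.3%, 39.4% and 40.1% of this sum in WT and 22.6%, 24% and 22.4% in Delta-TRRAP. MXD4 was 10.1%, 9.47% and 8.95% in WT and 18.5%, 16.6% and 17.7% in Delta-TRRAP. The shares of MXD1 and MXD4 did not overlap between the groups. The share of MXI1 was 33.5% ± 1.44 in WT and 41% ± 0.934 in Delta-TRRAP (SD, n = 3), while those of MNT (13.6% and 14.6%) and MXD3 (4.15% and 3.75%) differed by about their spread or less. The level ratio of MXD1 to MXD4 was 4.14 ± 0.348 in WT and 1.31 ± 0.118 in Delta-TRRAP (SD, n = 3). Summed repressors over the summed MYC family was 0.417, 0.395 and 0.427 in WT and 0.403, 0.369 and 0.384 in Delta-TRRAP, and the groups overlapped.

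**Figure D3:**
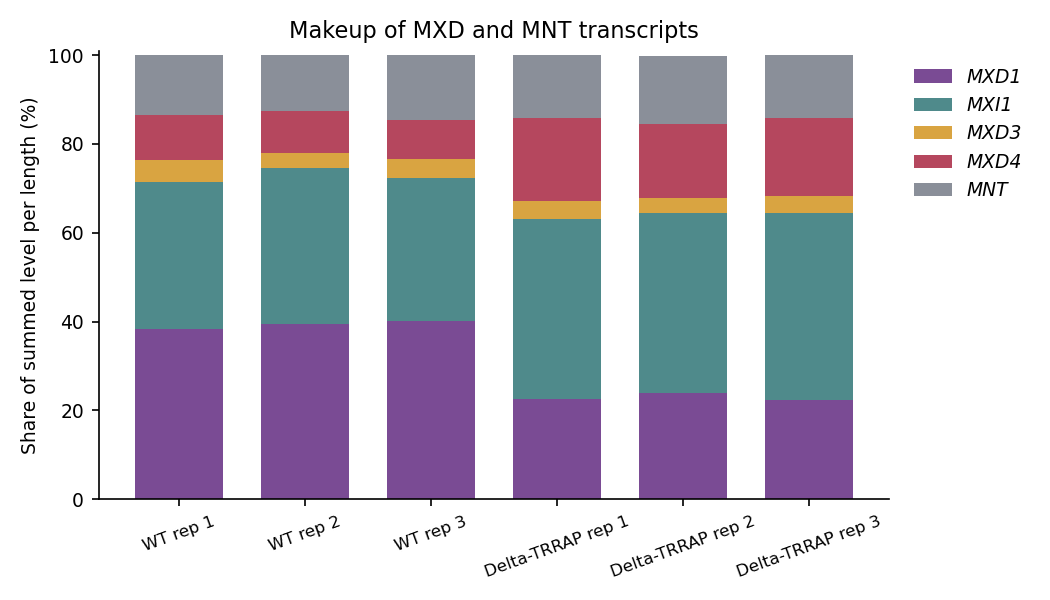
Share of the summed per-length level (vertical axis, percent) that each of 5 repressor genes held in each library (bars). The MXD1 segment takes 38.3% to 40.1% of the WT bars and 22.4% to 24% of the Delta-TRRAP bars, and the MXD4 segment 8.95% to 10.1% and 16.6% to 18.5%.

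Per length, the order of levels in WT was MYC (36.9 ± 1.13, SD, n = 3), MLX (17.9), MAX (9.43), MXD1 (6.62), MXI1 (5.65), MYCL (3.96), MNT (2.29), MXD4 (1.6), MXD3 (0.701) and MYCN (0.0125). In Delta-TRRAP it was MYC (37.9 ± 0.94, SD, n = 3), MLX (16.1), MAX (7.41), MXI1 (6.25), MXD1 (3.5), MXD4 (2.68), MNT (2.22), MYCL (1.62), MXD3 (0.573) and MYCN (0). Library ranges of neighbours in each order did not overlap. The order rests on the length used: with the longest transcript in place of merged exons, MXI1 was above MXD1 in WT (9.62 and 7.54) and MXD4 above MXD1 in Delta-TRRAP (4.36 and 3.99).

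MLXIPL and MLXIP, the sugar-sensing partners of MLX, moved in opposite directions. MLXIPL rose from normalized counts of 130, 118 and 132 in WT to 240, 219 and 251 in Delta-TRRAP, and MLXIP fell from 5946, 6000 and 6492 to 4888, 5135 and 4784. Neither pair of groups overlapped. The log2 fold changes were 0.90 ± 0.10 (SE, adjusted p of 1.4e-06) for MLXIPL and -0.32 ± 0.05 (SE, adjusted p of 8.42e-05) for MLXIP. MGA, the large MAX partner that also holds a T-box, had a log2 fold change of -0.35 ± 0.11 (SE) and ZBTB17 (MIZ1), which recruits MYC to repressed genes, one of -0.20 ± 0.07 (SE), and their adjusted p values of 0.0112 and 0.0156 did not pass. Both passed without Delta-TRRAP replicate 2, MGA at -0.52 (9.5e-07) and ZBTB17 at -0.22 (0.00905), and ZBTB17 also without WT replicate 2, at -0.25 (0.00865). With no filter both passed (7.83e-09 and 0.00947), and MGA did with RLE scaling (0.00767). With library size only neither passed, MGA at -0.21 (0.0895) and ZBTB17 at -0.06 (0.413). The WT and Delta-TRRAP libraries of MGA overlapped, and MGA was at -0.22 (0.0189) without Delta-TRRAP replicate 3.

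All 6 listed targets of the MLX branch passed the adjusted p and were higher in Delta-TRRAP, with a median log2 fold change of 1.35, where 30.7% of all genes tested were higher and the median was 0.03. The targets were listed with earlier results of these data known, so the count and median only describe them. This count and median include THRSP, named after its values were seen, which averaged 1.66 normalized counts in WT and 19.9 in Delta-TRRAP. THRSP reached the minimum mean of 5 only through Delta-TRRAP, and with a minimum mean of 50 the targets that were higher numbered 5. ARRDC4, an arrestin that limits glucose uptake, rose from normalized counts of 892, 845 and 935 in WT to 3451, 3571 and 3588 in Delta-TRRAP, a log2 fold change of 1.99 ± 0.05 (SE) with an adjusted p of 1.41e-13. Its relative TXNIP rose from 6932, 6807 and 7459 to 12300, 12778 and 12635, a log2 fold change of 0.83 ± 0.05 (SE) with an adjusted p of 1.66e-09. KLF10 rose by a log2 fold change of 0.58. In neither ARRDC4 nor TXNIP did the groups overlap. Of the listed targets of this branch, 5 had a promoter window, and 2 of these held CACGTG. Genes of this branch are known for carbohydrate response elements built from E boxes, and the promoter stretch of ARRDC4, the target with the smallest adjusted p, is shown with its CACGTG in capitals, 210 bases before the RefSeq start (GRCh38.p14, chr15:97960463-97960528, plus strand).
ARRDC4: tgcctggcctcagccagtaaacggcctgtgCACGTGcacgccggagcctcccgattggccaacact

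Of 41 genes listed as commonly cited targets that MYC induces, 32 were lower and 3 higher in Delta-TRRAP past the adjusted p, with a median log2 fold change of -0.40. These are strongly expressed genes: 37 of the 41 averaged 1000 or more normalized counts, and 31 of those 37 were lower and 3 higher. Among all 6804 genes at that level, 45.9% were lower and 22.1% higher, with a median of -0.14. With upper quartile scaling 25 of the 41 were lower and with library size only 24. In ribosome biogenesis 8 of 10 genes fell, among them FBL, the methyltransferase of nucleolar RNA, which went from 13523, 14241 and 13634 in WT to 6464, 6102 and 6708 in Delta-TRRAP, with no overlap and a log2 fold change of -1.10 ± 0.05 (SE, adjusted p of 7.97e-11). In nucleotide and polyamine synthesis 7 of 8 genes fell and 1 rose, which was ATIC of purine synthesis (log2 fold change of 0.44). The 4 genes for mitochondrial chaperones and prohibitins fell, with HSPE1, a partner of the chaperonin HSPD1, at -1.20, as did the 3 genes of one-carbon metabolism.

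Of 4 genes of glucose uptake and glycolysis, 1 was higher and 2 were lower. The glucose transporter gene SLC2A1 rose from 7279, 7045 and 7431 in WT to 21936, 21538 and 21360 in Delta-TRRAP, a log2 fold change of 1.58 ± 0.05 (SE) with an adjusted p of 6.4e-13. EIF4G1, the scaffold of translation initiation, rose by 0.27 on the log2 scale, though without WT replicate 1 its adjusted p was 0.0101, and 1 of the 4 initiation genes fell. EIF4A1 (-0.44, adjusted p of 0.014) did not pass and averaged 130 normalized counts. NOP2 of ribosome biogenesis (-0.56, 0.0651) also did not pass and averaged 23. Both were named after their values were seen, and their low counts make these results uncertain. TFRC fell from 190032, 192117 and 194133 to 88826, 96018 and 85674, a log2 fold change of -1.09 ± 0.06 (SE), and this gene is also among the erythroid markers. HSPE1, FBL, TFRC, PTMA and TERT were the 5 targets past a 2-fold fall. PTMA (-1.06) and TERT (-1.58), the latter with means of 119 and 39.6 normalized counts, were named after their values were seen. Of 34 of these targets with a promoter window, 17 held CACGTG, where 1376 of all genes tested with a window held it and 9924 did not.

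Genes listed as repressed by MYC went both ways, with 5 of 10 tested higher and 4 lower past the adjusted p and a median log2 fold change of 0.21, beside 30.7% higher and 27.6% lower among all genes tested. NDRG1, a stress and differentiation gene, rose from normalized counts of 59.8, 69.1 and 61 in WT to 704, 672 and 624 in Delta-TRRAP, a log2 fold change of 3.39 ± 0.10 (SE) with an adjusted p of 2.18e-13. CDKN1A, which encodes the cyclin-dependent kinase inhibitor p21, rose from 428, 432 and 477 to 1054, 948 and 978, a log2 fold change of 1.16 ± 0.07 (SE) with an adjusted p of 8.12e-10. GADD45A, of the growth arrest response, rose by 1.17 on the log2 scale. NDRG2 (-0.78) and the kinase inhibitor genes CDKN1B (-0.54) and CDKN2C (-0.19) fell, so that CDKN1A and CDKN1B, inhibitors of the same family, moved in opposite directions. The CDKN2C call was lost with library size only (-0.06, adjusted p of 0.372), with upper quartile scaling (-0.09, 0.173), and without WT replicate 1, 2 or 3 or Delta-TRRAP replicate 2, where it ranged from -0.21 to -0.15. CDKN1C, named after its values were seen, went from a mean of 155 normalized counts in WT to 11.9 in Delta-TRRAP.

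The cofactor lists hold mostly strongly expressed genes, so their counts stand beside the 45.9% lower and 22.1% higher, with a median log2 fold change of -0.14, among all genes averaging 1000 or more normalized counts. Of 16 genes of the SIN3-HDAC corepressor, which MXD proteins recruit, 11 were lower past the adjusted p and the other 5 did not pass, with a median of -0.29. The deacetylase gene HDAC2 fell from 18903, 17386 and 17469 in WT to 11416, 11568 and 12048 in Delta-TRRAP, a log2 fold change of -0.62 ± 0.05 (SE) with an adjusted p of 5.49e-08, and the SIN3 partner gene SAP30 by 0.59 on the log2 scale. Of 16 MYC coactivator genes, 9 were lower and the other 7 did not pass, with a median of -0.26: RUVBL2, an AAA ATPase shared by TIP60 and other remodellers, fell by 0.93 on the log2 scale, the cyclin T1 gene CCNT1 by 0.69 and the SAGA acetyltransferase gene KAT2A by 0.49. Of 10 MGA complex partners 5 were lower and 1 (RYBP, 0.18) was higher, a call lost in each fit that left out 1 library save that without Delta-TRRAP replicate 3, with CBX3 (-0.60), E2F6 (-0.54) and RNF2 (-0.48) the most reduced, and a median of -0.30. With library size only or upper quartile scaling, 7 SIN3-HDAC genes were lower. PTMA, HSPE1 and CBX3 have processed pseudogenes of near-identical sequence, and since reads with several places were discarded their counts are uncertain.

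Of 18 regulators of MYC protein turnover, which all averaged over 1000 normalized counts, 11 were lower and 2 higher, with a median of -0.32, beside 45.9% lower and 22.1% higher among all genes at that level. SKP2, a subunit of a ubiquitin ligase that acts on MYC, fell from 4428, 4529 and 4609 in WT to 1668, 1713 and 1772 in Delta-TRRAP, a log2 fold change of -1.40 ± 0.05 (SE) with an adjusted p of 2.71e-12. PPP2R5A, a PP2A subunit, fell by 0.91 on the log2 scale and the scaffold gene AXIN1 by 0.58. The ubiquitin ligase gene BTRC rose from 1272, 1384 and 1333 to 2632, 2814 and 2428, a log2 fold change of 0.98 ± 0.06 (SE) with an adjusted p of 1.56e-09, and the kinase gene PIM1 rose by 0.66. Of 7 other E-box factors tested, 3 were higher and 3 lower, with a median of 0.06, beside 30.7% higher and 27.6% lower among all genes tested. BHLHE40, a hypoxia-responsive repressor, rose from 1974, 2119 and 2218 to 6495, 6713 and 6928 (log2 fold change of 1.67 ± 0.06, SE, adjusted p of 1.28e-12), and MITF (-0.50), USF1 (-0.35) and USF2 (-0.25) fell, the last of these not past the test with library size only (0.0664) or upper quartile scaling (0.0226). The lysosomal regulator TFEB (means of 61 and 132 normalized counts in WT and Delta-TRRAP) and its relative TFEC (0.338 and 86.7) also rose. Both are named after their values were seen. TFEC reached the minimum mean for testing only through Delta-TRRAP, so it could be tested only if it was higher. With a minimum mean of 50, the other E-box factors that were higher numbered 2.

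**Figure D4:**
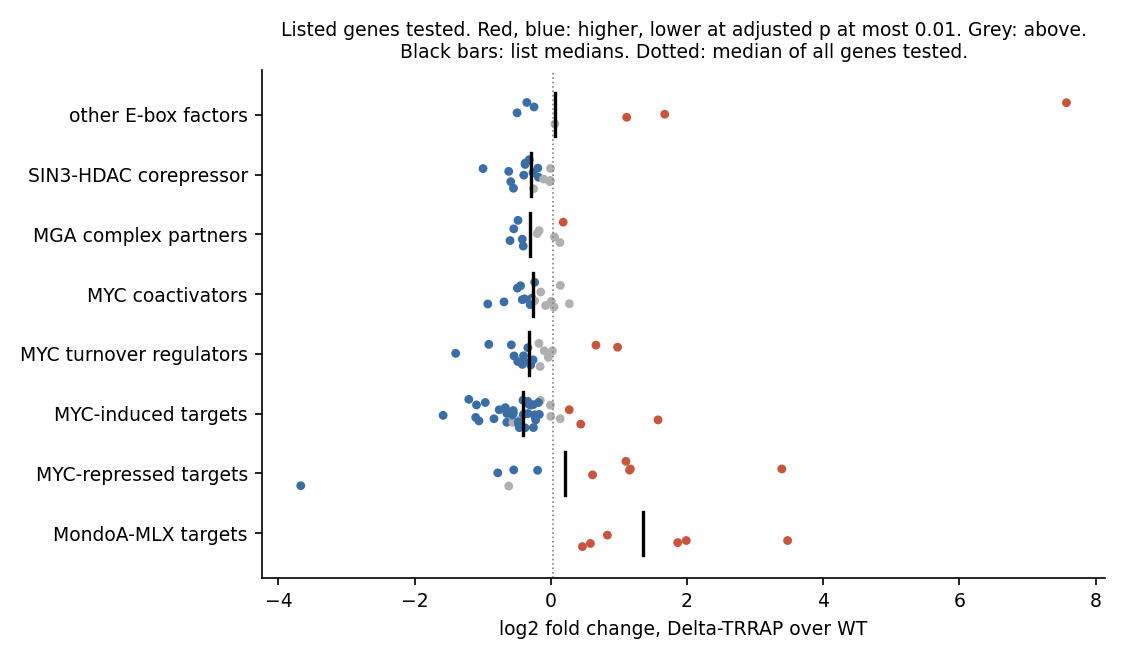
Log2 fold changes of Delta-TRRAP over WT (horizontal axis) for the genes tested in 8 lists (points), with list medians as black bars and the median of all genes tested, 0.03, as a dotted line. Red and blue mark genes higher and lower at an adjusted p of at most 0.01, grey a larger one. The MYC-induced targets centre on -0.40 with SLC2A1 far to the right, and all MLX targets (labelled MondoA-MLX) lie to the right of 0.

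Members were also set beside their chromosome neighbours, the 10 nearest genes on each side whose normalized count averaged 100 or more. The medians of the neighbours ran from -0.38 around MXD3 to 0.13 around MXI1. MYCL, at -1.29, was below all 20 of its neighbours, whose log2 fold changes ranged from -0.85 to 0.81. MXD4, at 0.74, was above all 20 of its own, which ranged from -2.05 to 0.47 with a median of -0.30, 12 of them lower past the adjusted p. MXD1, at -0.92, lay within the range of its neighbours, whose median was 0.03, and MXD3, at -0.29, was close to a median of -0.38. The neighbours of MYC had a median of 0.07, and NDRG1 was the highest of them.

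**Figure D5:**
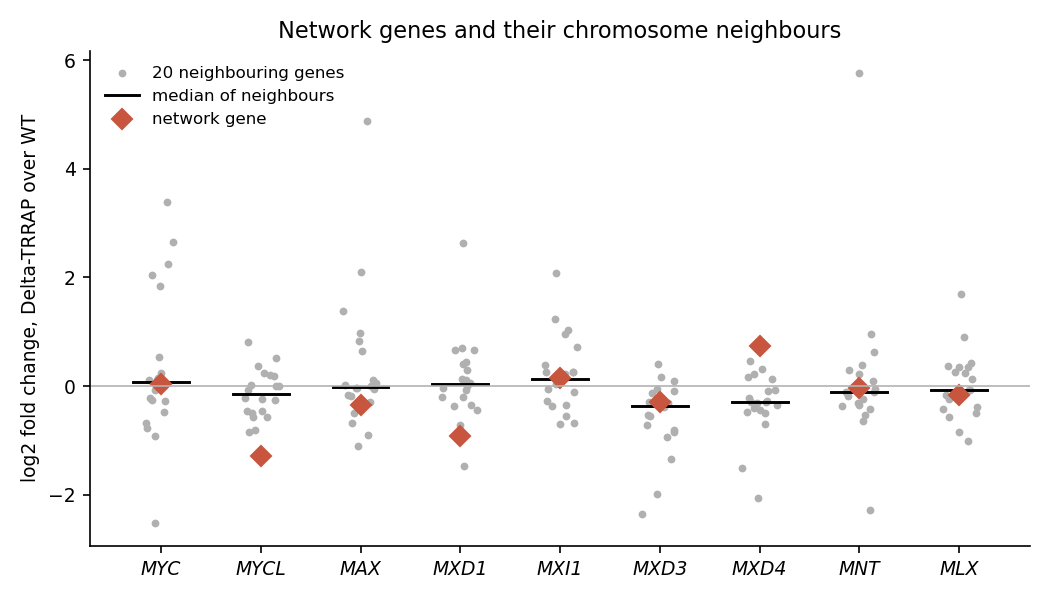
Log2 fold changes of Delta-TRRAP over WT (vertical axis) for each tested member (diamonds) and its 20 neighbouring genes (grey points, with black bars at their medians). The MYCL diamond lies below all its neighbours and the MXD4 diamond above all its neighbours, whereas the MYC, MXI1 and MNT diamonds lie near the neighbours' medians.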

How the data were processed

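Stranded poly(A) RNA-seq was measured in 3 WT and 3 Delta-TRRAP K562 libraries, grouped by sample title. The authors deposited, per library, counts of uniquely mapped reads per gene, from STAR alignments to hg38 and HTSeq 2.0.2 in reverse-stranded union mode, which drops reads shared by genes on the same strand. Reads that map to several places were discarded, which lowers genes with near-identical copies such as HBG1 and HBG2. The authors' normalized table and their table of fold changes and p-values were not used; the former holds 3 columns of other samples.

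Testing used edgeR 4.0.16 (R 4.3.3) with TMM scaling, a quasi-likelihood F test on group alone, and Benjamini-Hochberg adjustment over the 19114 genes averaging at least 5 normalized counts. Adjusted p values are from this test unless another tool is named. A gene passed at an adjusted p of 0.01 and was called with a fold change of at least 2 as well. The study used these thresholds with DESeq2. The exact permutation test of 3 against 3 cannot go below 0.1 and was not used.

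Levels per length are TMM-scaled CPM per kilobase of merged exons. Gene positions, lengths and neighbours come from GENCODE release 44 on GRCh38, which matched 19041 of the genes tested by ID and is not the release the authors counted on. Promoter windows come from RefSeq (GRCh38.p14), and stretches were shown without bases in annotated exons. The members and gene lists were chosen with earlier results of these data known. Named genes are the members, other network genes, EP400, TRRAP, PVT1, TXNIP, ARRDC4, and per list up to 3 rises and 3 falls, the largest among genes that passed, did not overlap and had a mean of at least 100. A gene that this rule names is not reported here. Replicates are labelled biological, but each group is 1 clone, so the p-values measure spread within a clone. Replicate pairs differed by 4.93 to 15.5 times the counting noise (chi-square over its degrees of freedom). Deviations of libraries with the same replicate number correlated at -0.03 to -0.01 across genes, so the numbers did not pair libraries. Alternatives were RLE, upper quartile and library size scaling, other filters and thresholds, DESeq2 1.42.0, limma-voom (limma 3.58.1), a replicate block and leaving out each library. The alternatives of the lists and of genes other than members were added after seeing the data.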

Additional observations from a re-analysis of the deposited data

How the results depend on the processing

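MYCL, MAX, MXD1 and MXD4 kept their direction and passed the adjusted p under every alternative run. At a fold change of 1.5 the called members numbered 3 and the called genes 6750, and with a minimum mean of 50 the called genes were 1968, against 4322. The calls of MYC, MXI1 and MLX depended on scaling, filter or tool. MLX also passed with RLE scaling (0.00749) and with a minimum mean of 50 (0.00813). The ratio of summed repressors to the MYC family in WT was 0.382 with the longest transcript in place of 0.413. With a replicate block 4184 genes were called, 4 members passed and 1 was called, and 30 MYC-induced targets were lower and 3 higher; no call of a member changed, 0 MGA complex partners were higher against 1, and 3 MYC-repressed targets were lower against 4, the lost call being CDKN2C (0.015). Leaving out each library in turn gave 4060 to 4256 called genes, 4 to 5 members that passed, 29 to 33 MYC-induced targets lower and 2 to 3 higher, 0 to 1 MGA partners higher and 0 to 2 MYC coactivators higher. With upper quartile scaling or library size only, 25 and 24 MYC-induced targets were lower and 4 higher, 7 SIN3-HDAC genes were lower in place of 11, 2 and 3 MGA partners were higher, and 1 MYC coactivator was higher, as it was with no filter. With a minimum mean of 50, 1 gene around MYC was higher, since fewer were tested. MYCN could not be tested at this depth, and MXD3 had the widest interval of the members. Protein levels were not measured, and the clone cannot be told apart from the genotype.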
